A study of Mus musculus with 16 samples.

Results

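Dendritic cell signature genes were followed through 16 RNA-seq libraries of F4/80+ cells sorted from mouse epididymal fat. The set held 10 genes, Naaa, Plbd1, Flt3, Zbtb46, Cd209a, Ccl22, Ccr7, Clec9a, Xcr1 and Itgax, out of 37310 gene identifiers in the deposited count table, and each was found by its gene name. The genes were chosen by their use as dendritic cell markers, and an earlier list of such markers had been drawn up after genes that differed between genotypes on long-term high-fat diet (LT-HFD) had been seen. The genotype difference on LT-HFD, and the interaction that contains it, are therefore given for these genes as values with their standard errors and without a test.

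The study asked how the transcription factor IRF5 shapes adipose tissue macrophages (ATMs) when mice eat too much fat. F4/80+ cells were compared between wild-type mice (WT) and mice lacking IRF5 in myeloid cells (IRF5-KO), after 4 weeks (short-term, ST-HFD) or 12 weeks (LT-HFD) of high-fat feeding, with 4 libraries in each of the 4 groups. All mice were males of a C57BL/6 background that started as young adults. IRF5-KO mice carried floxed Irf5 alleles and LysM-Cre, a Cre inserted at the Lyz2 locus that is active in macrophages, monocytes and neutrophils, and whether WT mice carried the floxed alleles is not given in the sources used here. The legend for these data gives an n equal to the number of libraries per group, and the study's methods say that legends give numbers of mice. Each library is therefore taken as a separate mouse, and p-values measure the spread between libraries. The groups have no chow-fed control.

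Conventional dendritic cells take up antigen in tissues, mature, and carry it along CCR7 ligand gradients to lymph nodes, where they prime T cells. Their development depends on the cytokine receptor FLT3, and ZBTB46 is a transcription factor of the conventional lineage. Macrophages of adipose tissue share many surface proteins with them, among them CD11c, the product of Itgax, so F4/80+ cells can hold both kinds of cell and macrophages can carry part of the same genes.

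Total counts ran from 3279332 to 4958131 per library. Levels are given as CPM, counts scaled to library size with edgeR's TMM factors, and as CPM per kb of exons where genes are compared with each other. The most abundant features, the mitochondrial ribosomal RNAs mt-Rnr1 and mt-Rnr2 and a locus named mmu-mir-689-2, took 18.6% to 24.1% of the counts in ST-HFD libraries and 26.1% to 34.6% in LT-HFD libraries. Irf5 counts did not drop in IRF5-KO libraries, with log2 fold changes of 0.13 (SE 0.10) on ST-HFD and 0.24 (SE 0.12) on LT-HFD, and the table gives 1 sum per gene in which a deleted exon cannot be seen. Lyz2, the locus of the Cre, had log2 fold changes of -0.97 (SE 0.14) and -1.04 (SE 0.14), with edgeR adjusted p-values of 0.106 and 0.0484. Genotypes and durations are named here as the libraries are labelled. One plot in the study appears to show WT libraries under the opposite duration to their sample labels. Libraries of one labelled duration were alike in both genotypes, with 1 (ST-HFD) and 2 (LT-HFD) genes called between genotypes by edgeR at an adjusted p under 0.05, against 2928 (WT) and 3787 (IRF5-KO) between durations. Directions between durations follow the labels, and all would turn if the durations were exchanged in both genotypes.

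Flt3, Clec9a and Xcr1 were close to the floor of the measurement, while the genes that carried the signature are also found in macrophages. Zbtb46, of the conventional lineage, was low but had 18 to 80 counts per library. Per kb of exons, the mean over 16 libraries was 38.8 CPM for Plbd1, 35.6 for Naaa, 29.5 for Cd209a, 25.1 for Itgax, 7.65 for Ccl22, 3.86 for Ccr7, 1.44 for Zbtb46, 0.391 for Flt3, 0.241 for Clec9a and 0.0799 for Xcr1. Plbd1, Naaa, Cd209a and Itgax did not differ beyond their spread as neighbours in this order. Plbd1 lay above Naaa in 6 of 16 libraries, Naaa above Cd209a in 10 and Cd209a above Itgax in 9. Below them the order was kept in most libraries, with Itgax above Ccl22 in 15, Ccl22 above Ccr7 in 15, Ccr7 above Zbtb46 in 16, Zbtb46 above Flt3 in 16, Flt3 above Clec9a in 12 and Clec9a above Xcr1 in 13. Naaa, Itgax, Plbd1 and Cd209a held 90.8% of the 28702 counts of the 10 genes, and Flt3, Clec9a and Xcr1 together held 227 counts, or 0.791%.

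The label of the set was checked against markers of the cell types that an F4/80+ sort could hold. The macrophage markers Csf1r, the receptor of macrophage colony-stimulating factor, and Adgre1, which encodes the F4/80 antigen of the sort, had means of 261 and 214 CPM per kb. Mertk and Fcgr1, further macrophage receptors, had 35.6 and 25.6 CPM per kb. Flt3, at 0.391 CPM per kb, was thus far below them, and Clec9a and Xcr1 of the cross-presenting type 1 conventional dendritic cell (cDC1) were lower still. Other genes used as dendritic cell markers were well detected. Mgl2 and Clec10a, lectins of type 2 conventional dendritic cells (cDC2) that tissue macrophages also make, had 179 and 121 CPM per kb, and the transcription factor genes Irf8, Batf3 and Irf4 had 18.7, 15.1 and 6.40. Ccl17, Fscn1 and Il4i1, genes of mature dendritic cells, had 7.57, 7.13 and 1.61, and Siglech of plasmacytoid dendritic cells had 2.26. Lists for lymphocytes and eosinophils held both low and high genes. Lineage receptors were low, at 0.203 for Cd3e, 0.648 for Cd79a, 0.118 for Ncr1 and 0.767 for Ccr3. Other genes of the same lists were well detected. Ighm, the heavy chain of IgM, at 107 CPM per kb, and the eosinophil ribonuclease gene Ear2, at 67.4, lay above the mean of every member, and the IL-7 receptor gene Il7r had 11.6 and the B cell adaptor gene Bank1 4.07. These levels do not bear out the set as a measure of conventional dendritic cells alone, and the genes are described below by name. In such bulk samples, fewer cells of a type and less RNA per cell cannot be told apart.

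**Figure D1:**
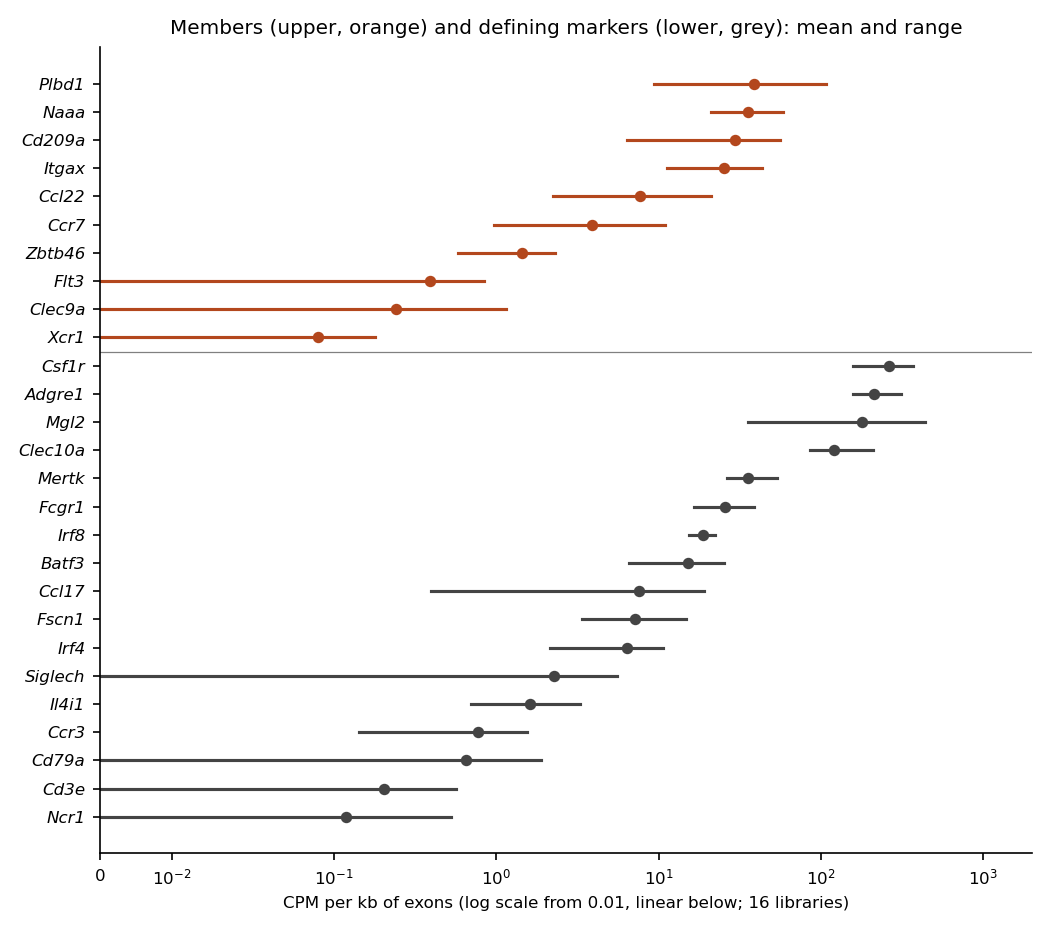
Level of the 10 members (orange) and of defining markers of macrophages, dendritic cell types and other cells (grey), in CPM per kb of exons on an axis that is logarithmic above 0.01. Points are means and lines run from the lowest to the highest of 16 libraries; Flt3, Clec9a and Xcr1 reach 0 in at least 1 library while Csf1r and Adgre1 stay above 150 in all.

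Flt3, the receptor that drives dendritic cell development, had 0 to 21 counts per library. Its levels were 2.96, 1.39, 1.26 and 4.01 CPM in WT on ST-HFD and 2.02, 5.13, 3.71 and 1.72 CPM in IRF5-KO on ST-HFD. On LT-HFD they were 2.95, 2.07, 0 and 2.41 CPM in WT and 2.73, 0.274, 0.828 and 5.17 CPM in IRF5-KO. All groups overlapped, and at this depth a count of 0 allows up to 3 counts, or 0.835 CPM in the WT library without a count (counting error only). Zbtb46 lay between 4.94 and 19.5 CPM over all libraries, with 18 to 80 counts. It averaged 11.7 ± 3.68 CPM (SD, n = 4) in WT and 13.3 ± 4.61 in IRF5-KO on ST-HFD, and 14.7 ± 3.99 and 9.34 ± 3.79 on LT-HFD. Clec9a, a receptor for dead cells on cDC1, had 0 to 11 counts, the highest in WT on LT-HFD replicate 2, and its exons overlap those of Clec1b on the same strand, so reads there cannot be assigned to either gene with certainty. Xcr1, the XCL1 receptor of cDC1, had 0 to 4 counts, with 10 counts summed over WT and 8 over IRF5-KO libraries on ST-HFD, and 4 and 2 on LT-HFD. Clec9a and Xcr1 passed the filter on low counts in no comparison, so a difference in them was not detectable at this depth.

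**Figure D2:**
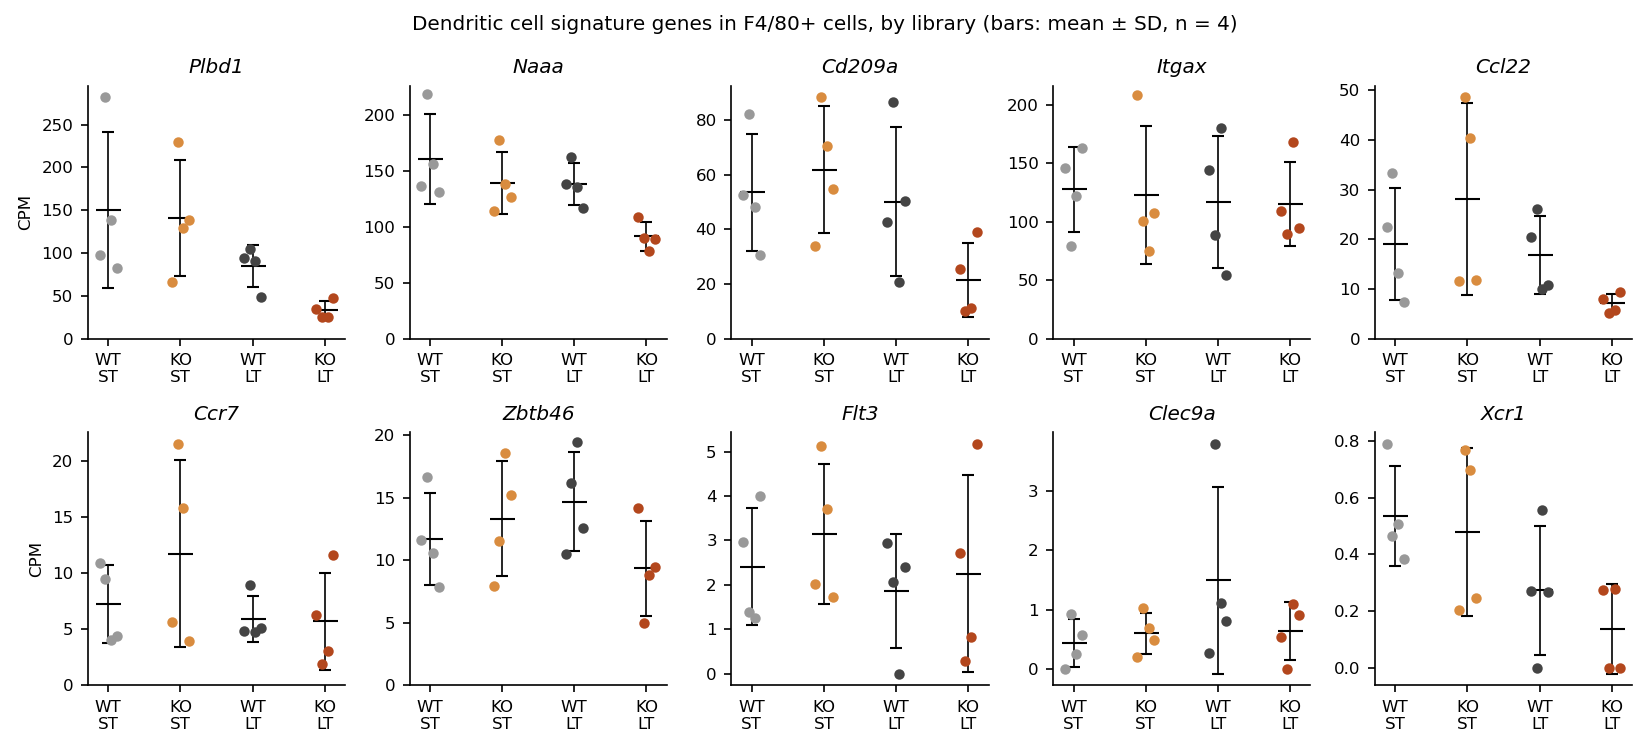
CPM of each member in every library, 1 point per library, with the mean and SD of each group of 4 (WT and KO are the WT and IRF5-KO libraries, ST and LT the diet durations). The IRF5-KO LT-HFD libraries lie below all others for Plbd1 and Naaa, from 24.7 to 47.2 and 78.1 to 109 CPM. For Ccl22, at 5.21 to 9.44 CPM, WT ST-HFD replicate 4 (7.45 CPM) lies among them, and Itgax shows no such step.

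On LT-HFD, the libraries labelled IRF5-KO had lower levels than WT of 3 members without any overlap. Plbd1, a lysosomal phospholipase B-like protein, was at 94.5, 105, 90.5 and 48.4 CPM in WT and at 34.9, 24.7, 24.8 and 47.2 CPM in IRF5-KO, a log2 fold change of -1.37 (SE 0.26). The highest IRF5-KO library was just under the lowest WT library. Naaa, the lysosomal amidase that breaks down palmitoylethanolamide, was at 138, 162, 136 and 117 CPM in WT and at 109, 89.7, 78.1 and 89.2 CPM in IRF5-KO, a log2 fold change of -0.60 (SE 0.14). Ccl22, a chemokine that draws CCR4-bearing T cells, was at 20.4, 26.2, 10.0 and 10.7 CPM in WT and at 7.91, 5.21, 5.79 and 9.44 CPM in IRF5-KO, a log2 fold change of -1.25 (SE 0.34). Replicates 3 and 4 of WT came close to the IRF5-KO values for this gene.

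Cd209a, a C-type lectin related to human DC-SIGN, had overlapping groups on LT-HFD. Its levels were 42.7, 86.5, 20.9 and 50.3 CPM in WT and 25.4, 10.1, 11.03 and 39.0 CPM in IRF5-KO, a log2 fold change of -1.24 (SE 0.46). Zbtb46 had a log2 fold change of -0.65 (SE 0.31). Ccr7, the receptor that guides mature dendritic cells to lymph nodes, had -0.05 (SE 0.49), and Itgax had -0.02 (SE 0.32). The signs of Ccr7 and Itgax turned when single libraries were left out, over a range of -0.65 to 0.24 for Ccr7 and -0.26 to 0.28 for Itgax. IRF5-KO lay below WT without overlap for 1.67% of all genes, and since the members were chosen in part from this contrast, nothing is read from the members' 3.

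On ST-HFD the same genes had no difference between genotypes that passed the test. Of the 8 members tested, 0 were called at an adjusted p under 0.05 (0.00913%, or 1, of the 10958 genes tested), and 0 had a p under 0.05 before adjustment (1.84%, or 202, of all genes). With the replicate number as a block, 2 genes and 0 members were called. Log2 fold changes ran from -0.21 for Naaa (SE 0.18) to 0.68 for Ccr7 (SE 0.51), 5 of 8 were positive, and the adjusted p from edgeR was 0.9998 for each. The intervals were wide. For Plbd1 the log2 fold change was -0.09 with a 95% interval from -0.99 to 0.81, for Ccl22 it was 0.55 with an interval from -0.61 to 1.70, and for Cd209a it was 0.20 with an interval from -0.48 to 0.89. Naaa was at 136, 219, 156 and 131 CPM in WT and at 114, 177, 138 and 127 CPM in IRF5-KO. The groups overlapped. IRF5-KO was lower in 4 of 4 same-numbered pairs, but nothing in the labels says what same-numbered libraries share, so this is a description only. With the replicate block the log2 fold change was -0.20 (adjusted p = 0.992, edgeR). Plbd1 was at 97.8, 282, 139 and 82.2 CPM in WT and at 65.6, 230.2, 129 and 139 CPM in IRF5-KO, and replicate 2 was the highest of its group in both. Ccl22 was at 22.5, 33.3, 13.1 and 7.45 CPM in WT and at 11.5, 48.7, 40.3 and 11.8 CPM in IRF5-KO, so the spread within IRF5-KO alone covered all WT libraries but 1.

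**Figure D3:**
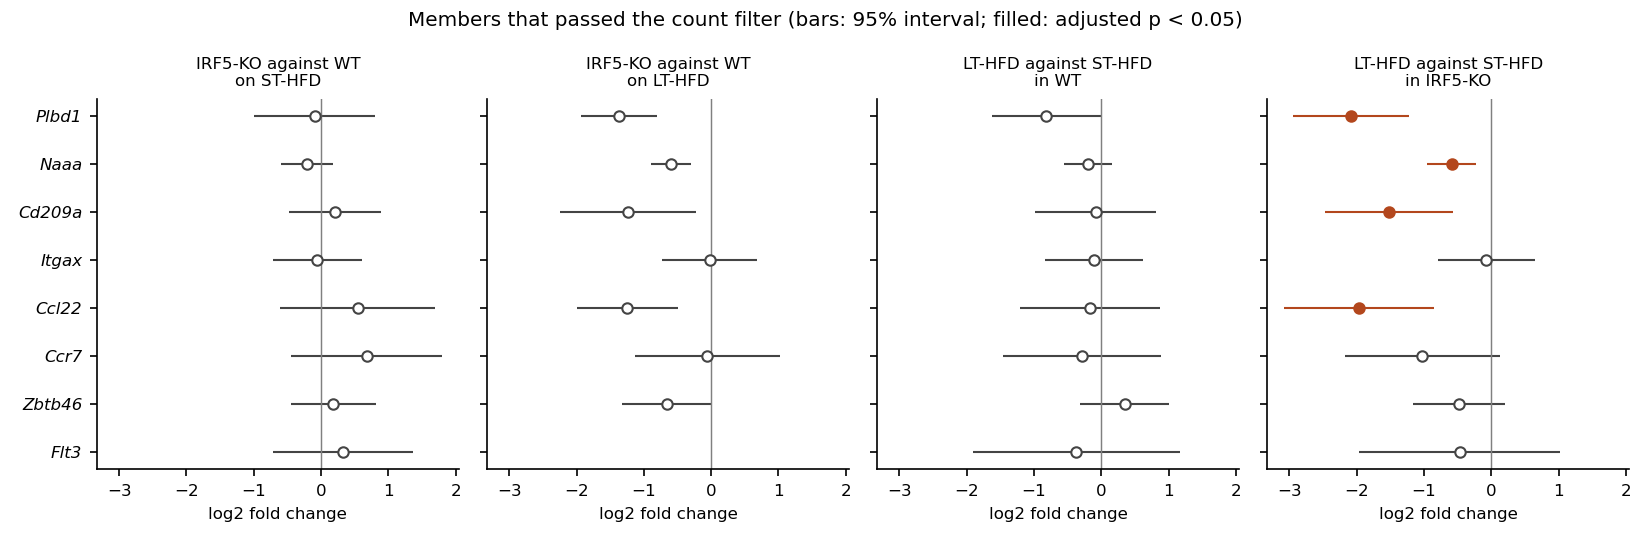
Log2 fold changes of the 8 members that passed the count filter in at least 1 comparison, with 95% intervals, for genotype at each duration and for duration in each genotype. Filled points have an adjusted p under 0.05 (Plbd1, Naaa, Cd209a and Ccl22 between durations in IRF5-KO); for genotype on LT-HFD no test is given, and Flt3 did not pass the filter there.

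Between durations, Plbd1, Ccl22, Cd209a and Naaa fell in the IRF5-KO libraries, and no member passed the test in WT. In IRF5-KO, 4 of 8 members tested were lower on LT-HFD than on ST-HFD (adjusted p under 0.05, edgeR), and 0 were higher. Among all 11560 genes, 32.8% passed in either direction and 17.2% were lower. Plbd1 fell most, by a log2 fold change of -2.08 (SE 0.41, adjusted p = 0.000884), from 65.6, 230.2, 129 and 139 CPM on ST-HFD to 34.9, 24.7, 24.8 and 47.2 CPM on LT-HFD. Ccl22 had a log2 fold change of -1.97 (SE 0.53, adjusted p = 0.00898), Cd209a -1.52 (SE 0.45, adjusted p = 0.0159) and Naaa -0.59 (SE 0.17, adjusted p = 0.0149). Plbd1, Ccl22 and Naaa were lower in every LT-HFD library than in any ST-HFD library of this genotype, as were 15.7% of all genes tested. Cd209a overlapped, since IRF5-KO LT-HFD replicate 4 (39.0 CPM) was above IRF5-KO ST-HFD replicate 1 (33.8 CPM).

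These calls share the IRF5-KO LT-HFD libraries with the contrast that had been seen when markers were listed, so they are not independent evidence. The calls of Naaa and Cd209a also rested on particular libraries. The adjusted p for Naaa was 0.0646 without IRF5-KO ST-HFD replicate 2 and 0.0516 without IRF5-KO LT-HFD replicate 3, and for Cd209a it was 0.0534, 0.0510 and 0.0563 without IRF5-KO ST-HFD replicate 2, IRF5-KO LT-HFD replicate 2 and IRF5-KO LT-HFD replicate 3. Without IRF5-KO ST-HFD replicate 2 or IRF5-KO LT-HFD replicate 3, only 2 members, Plbd1 and Ccl22, were called. The other tested members had adjusted p-values of 0.163 for Ccr7 (log2 fold change -1.03, SE 0.55), 0.268 for Zbtb46 (-0.49, SE 0.32), 0.646 for Flt3 (-0.47, SE 0.71) and 0.894 for Itgax (-0.07, SE 0.34) in edgeR's test. Ccr7 passed without IRF5-KO LT-HFD replicate 4, at an adjusted p of 0.0452 and a log2 fold change of -1.62.

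In WT, 0 of the same 8 members passed, against 25.3% of the 11560 genes. The WT LT-HFD libraries were also in the contrast seen when markers were listed, so this count is not independent of that choice. Before adjustment 1 member, Plbd1, had a p under 0.05, against 35.9% of all genes, and DESeq2 called 0 members. Plbd1 was at 97.8, 282, 139 and 82.2 CPM on ST-HFD and at 94.5, 105, 90.5 and 48.4 CPM on LT-HFD, a log2 fold change of -0.81 (SE 0.39, adjusted p = 0.138). Without 1 library the log2 fold change of Plbd1 ran from -1.015 to -0.31 (adjusted p from 0.0704 to 0.579, edgeR). Naaa had -0.20 (SE 0.17, adjusted p = 0.447), Ccl22 -0.17 (SE 0.49, adjusted p = 0.839) and Cd209a -0.08 (SE 0.43, adjusted p = 0.913). Zbtb46 had the only positive value, 0.35 (SE 0.32, adjusted p = 0.463). The difference between the durations' changes, IRF5-KO minus WT, was -1.27 (SE 0.56) for Plbd1, -1.80 (SE 0.73) for Ccl22, -1.44 (SE 0.62) for Cd209a, -0.39 (SE 0.24) for Naaa and 0.04 (SE 0.49) for Itgax on the log2 scale, given without a test. Over all 11560 genes the interaction called 0 genes in edgeR (0%) and 0 in DESeq2, and 454 had an unadjusted p under 0.05 in edgeR, so a change in one genotype and not in the other is not shown to differ.

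Itgax, the integrin chain CD11c, had like mean levels in all groups. It was at 146, 79.6, 122 and 163 CPM in WT and at 208.5, 101, 75.1 and 107 CPM in IRF5-KO on ST-HFD. On LT-HFD it was at 144, 88.6, 180.4 and 54.3 CPM in WT and at 109, 89.4, 168 and 94.96 CPM in IRF5-KO. Group means lay between 115 and 128 CPM, with SDs from 36.1 to 58.7 CPM, so the libraries of a group spread over far more than the means did. The 95% interval between durations in IRF5-KO ran from -0.80 to 0.65 on the log2 scale, which leaves room for a change of either sign.

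The sequence upstream of the 4 members that fell together in IRF5-KO is shown because IRF5, the factor deleted in that genotype, binds DNA. RefSeq promoters were matched for 9 of the 10 members, all but Ccr7, on GRCm38.p6. Each sequence below is given 5′ to 3′ on the strand of its gene and ends before both the RefSeq and the GENCODE start of the gene. Matches to the ETS core GGAAGT or to the letters TATAAA, on either strand, are in capitals. The Naaa stretch is chr5:92278182-92278431 on the minus strand, Plbd1 chr6:136661929-136662143 on the minus strand, Cd209a chr8:3748985-3749234 on the minus strand and Ccl22 chr8:94745434-94745589 on the plus strand.
Naaa: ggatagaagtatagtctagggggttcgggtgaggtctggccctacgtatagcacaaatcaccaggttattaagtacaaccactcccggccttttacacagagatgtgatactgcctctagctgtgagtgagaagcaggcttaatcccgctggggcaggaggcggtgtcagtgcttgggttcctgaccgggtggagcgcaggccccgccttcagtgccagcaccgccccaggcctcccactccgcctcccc
Plbd1: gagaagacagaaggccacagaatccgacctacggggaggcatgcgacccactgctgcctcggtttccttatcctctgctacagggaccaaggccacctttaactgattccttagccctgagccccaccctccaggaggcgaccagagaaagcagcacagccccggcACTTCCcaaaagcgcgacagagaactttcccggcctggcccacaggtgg
Cd209a: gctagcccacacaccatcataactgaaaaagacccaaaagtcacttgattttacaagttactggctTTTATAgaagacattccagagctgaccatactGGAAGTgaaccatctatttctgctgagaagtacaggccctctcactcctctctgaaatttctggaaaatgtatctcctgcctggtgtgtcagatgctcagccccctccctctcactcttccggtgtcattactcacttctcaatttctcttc
Ccl22: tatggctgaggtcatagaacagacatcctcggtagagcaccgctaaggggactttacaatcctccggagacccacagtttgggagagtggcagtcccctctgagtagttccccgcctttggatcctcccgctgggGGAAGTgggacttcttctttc

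In the 250 bases before each RefSeq start, a pair of IRF half-sites, GAAA and GAAA with 2 bases of any kind between them, was in 0 of the 9 members and in 2.98% of 32851 promoters. For Zbtb46 the RefSeq start lies inside the gene as GENCODE draws it, so its window is not upstream of that gene model, and it held none of the 4 motifs searched. A longer PU.1-type motif, the ETS core with GA before it, was in 0 of 9 and in 2.44%. The ETS core GGAAGT, which lies within that longer motif, was in 6 of 9 (Ccl22, Cd209a, Flt3, Itgax, Plbd1 and Xcr1) and in 19.7% of all promoters. TATAAA was in 3 of 9 (Cd209a, Clec9a and Xcr1) and in 12.4%. All 3 matches lay on the strand opposite to the gene, at -184, -226 and -160 from the RefSeq start, so they are matches of letters only. The motifs were picked with the sequences at hand, and both strands were searched. Naaa had none of these letters in its window.

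Within groups, the 6 members other than Itgax with a mean count of at least 20 rose and fell together from library to library. With the group mean of each gene subtracted, all 15 pairs among Naaa, Plbd1, Zbtb46, Cd209a, Ccl22 and Ccr7 had a positive Pearson's r of log2 CPM over 16 libraries, from 0.44 to 0.87. The r of Zbtb46 with Cd209a, Ccr7, Ccl22 and Plbd1, between 0.44 and 0.55, fell to between 0.24 and 0.35 without 2 libraries (0.52 with Naaa), and that of Naaa with Ccr7 went from 0.53 to 0.39, so the lower end of the range rests on few libraries. Naaa and Plbd1 had an r of 0.87 (Spearman's rho 0.82, and r 0.76 once the 2 libraries with the most extreme Naaa values were dropped). Ccl22 and Ccr7 had 0.83 (rho 0.80, 0.81 without 2 libraries) and Cd209a and Ccr7 0.78 (rho 0.82, 0.78). Itgax had a negative r with all 6, from -0.64 with Cd209a (rho -0.61, -0.59 without 2 libraries) to -0.28 with Zbtb46. Its r with Plbd1, -0.33, was 0.02 without the 2 libraries farthest on Plbd1. These values are descriptions over libraries that share depth and composition. The r of the 6 members with total counts ran from -0.71 to -0.14 and with the share of the 3 most abundant features from 0.26 to 0.61, against 0.28 and -0.57 for Itgax. Summed levels of other marker lists moved with the 6 members as well. Their r ran from 0.57 to 0.87 with the macrophage list and from 0.53 to 0.85 with the B cell list, in which Ighm and Bank1 are the abundant genes, against -0.51 and -0.59 for Itgax. With the conventional dendritic cell core list it ran from 0.61 to 0.90, against -0.51 for Itgax. The part of depth, composition and these lists in the pattern was not tested.

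**Figure D4:**
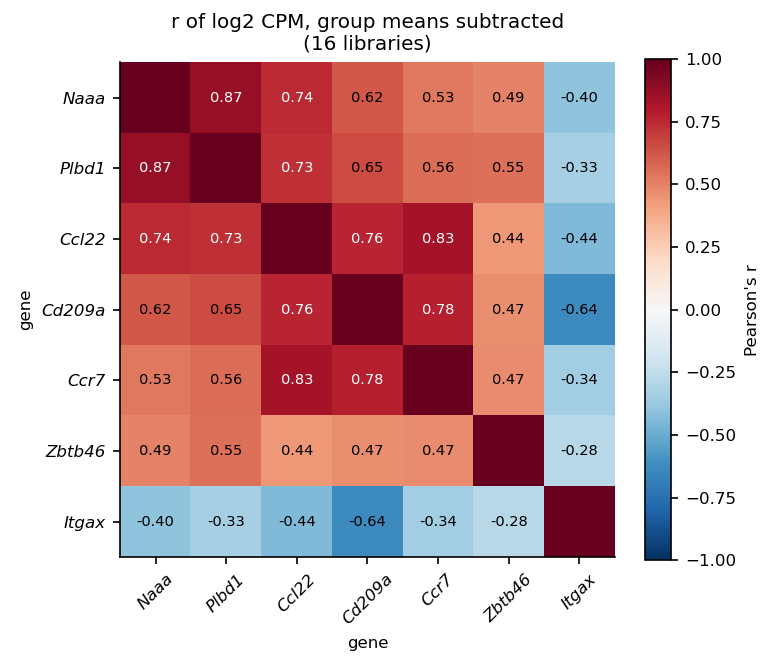
Pearson's r between the 7 members with a mean count of at least 20, from log2 CPM with group means subtracted over 16 libraries. The block of 6 genes has r from 0.44 to 0.87, and the row of Itgax is negative throughout, from -0.64 to -0.28.

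Markers of ATM subsets had an r of opposite sign with Itgax and with the other 6 members compared. A list of 11 genes of lipid-associated CD11c+ ATMs, the lipid-loaded cells that gather around dying adipocytes, had a positive r with Itgax for all 11 (median 0.70) and a negative r with each of the other 6 members for all 11 (medians from -0.80 for Cd209a to -0.51 for Zbtb46). Of the resident macrophage receptors, Cd163 had an r of 0.95 with Cd209a (rho 0.93, 0.94 without 2 libraries) and Mrc1 0.93 (rho 0.93, 0.91), while Adgre1 had -0.81 (rho -0.77, -0.76). Over all 15 macrophage genes the median r was 0.62 with Plbd1, 0.59 with Naaa, 0.54 with Ccl22, 0.50 with Zbtb46, 0.33 with Cd209a, 0.28 with Ccr7 and -0.22 with Itgax. The conventional dendritic cell core list, 10 of whose genes had enough counts, had a median r of 0.71 with Ccl22, 0.67 with Plbd1, 0.65 with Cd209a and Ccr7, 0.61 with Naaa, 0.30 with Zbtb46 and -0.42 with Itgax. The median was thus higher with the core genes than with the macrophage genes for 5 of the 6 members and lower for Zbtb46. With summed lists, the r was instead higher with the macrophage list for Cd209a (0.76 against 0.68) and Ccl22 (0.80 against 0.78). For Zbtb46 it was lower with the macrophage list (0.57 against 0.61). The order thus depends on the measure, and it was not tested. The cDC1 and cDC2 lists were mixed. With each of the 6 members, 5 or 6 of 9 cDC1 genes and 5 of 8 cDC2 genes had a positive r. Cadm1, a cDC1 marker, had a negative r with all 6, from -0.91 (Cd209a) to -0.45 (Zbtb46), and 0.68 with Itgax. The 5 genes most like Cd209a among 9764 were Gprc5c, Pdgfc, Cd163, Prkd2 and Adam15, with r from 0.94 to 0.95. For Ccl22 they were Zfp106, Igf1, Chd7, Fchsd2 and Il4i1 (0.91 to 0.93), for Plbd1 Rogdi, Hr, Uvrag, Relch and Tlr9 (0.88 to 0.93) and for Naaa Marcks, Rnf213, H2-D1, Ipmk and H2-Q4 (0.88 to 0.94). For Ccr7 they were Pfkfb3, Hspa1a, Atf2, Mylip and Ube2f (0.91 to 0.94), for Zbtb46 Mpnd, Mir1938, Nuak1, Chst7 and Fbxw7 (0.80 to 0.90) and for Itgax Exoc5, P2ry10b, Plekho2, Fmnl3 and Myof (0.89 to 0.92).

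**Figure D5:**
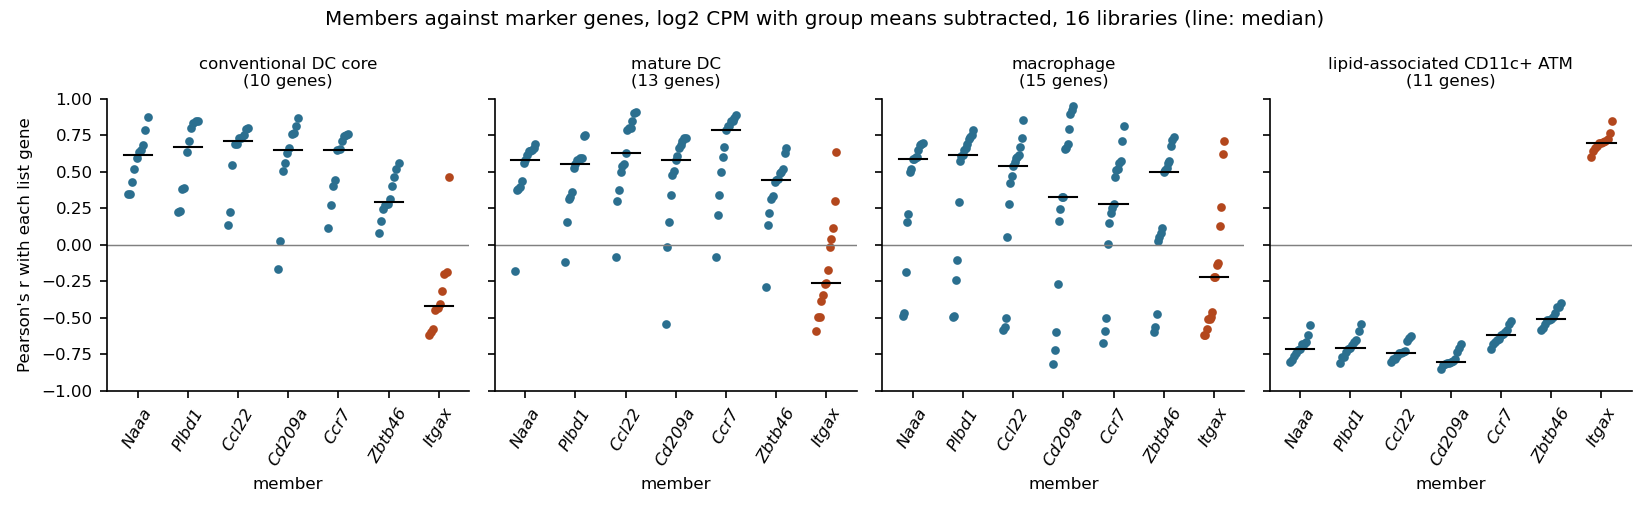
Pearson's r of each of the 7 members with each gene of 4 marker lists, from log2 CPM with group means subtracted over 16 libraries; each point is a list gene and the line is the median. All 11 lipid-associated genes are below 0 for the 6 blue members and above 0 for Itgax (orange).

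Other dendritic cell genes moved between durations in both directions. Among all 11560 genes, 17.2% were lower and 15.6% higher on LT-HFD in IRF5-KO, and 13.2% were lower and 12.1% higher in WT. Of the conventional dendritic cell core list, 16 of 22 genes were tested, and in IRF5-KO 7 were lower on LT-HFD and 1 was higher, with a median log2 fold change of -0.39 beside 0.04 over all genes. Those that fell included Runx3, a transcription factor (log2 fold change -2.43, SE 0.58, adjusted p = 0.00383 in edgeR). In WT 3 of this list fell and 2 rose, Adam23 and Dpp4, of which Dpp4 is also on the fibroblast list, with a median of 0.005 beside 0.02. Of the mature dendritic cell list in IRF5-KO, 5 of 16 tested genes fell and 2 rose, and Marcksl1 had -1.59 (SE 0.34, adjusted p = 0.00181) and Relb, an NF-kappa B subunit, -0.66 (SE 0.17, adjusted p = 0.00525). In WT 0 of these 16 fell and 1, Socs2, rose. Of the plasmacytoid list, 2 of 4 tested genes fell in IRF5-KO and 0 in WT, and its marker Siglech had -3.13 (SE 0.69, adjusted p = 0.00215) in IRF5-KO and -0.88 (SE 0.59, adjusted p = 0.302) in WT. Of the 10 tested cDC2 genes, 3 fell and 1 rose in IRF5-KO, and 2 fell and 1 rose in WT. Mgl2 had -2.16 (SE 0.39, adjusted p = 0.000472) in IRF5-KO and -0.96 (SE 0.38, adjusted p = 0.0746) in WT, while the lectin gene Clec12a rose in IRF5-KO (0.87, SE 0.22, adjusted p = 0.00537) and Clec10a rose in WT (0.54, SE 0.17, adjusted p = 0.0240). Of the 11 tested cDC1 genes, 1 fell and 1 rose in IRF5-KO, and 1 fell and 2 rose in WT. Ifi205 rose in both, from 8.05 ± 3.57 to 71.6 ± 24.7 CPM (SD, n = 4) in IRF5-KO and from 7.70 ± 0.98 to 62.3 ± 43.3 CPM in WT, with edgeR adjusted p-values of 2.15e-05 and 4.45e-05. Ppt1, a lysosomal thioesterase, rose in WT by a log2 fold change of 0.24 (adjusted p = 0.0417). Wdfy4 fell in both genotypes (-0.89 in IRF5-KO, adjusted p = 0.000125, and -0.81 in WT, adjusted p = 0.000356), while Irf8 had 0.01 and -0.04 (adjusted p = 0.939 and 0.810). Of the 13 dendritic cell transcription factors, 8 fell in IRF5-KO and 5 in WT and 0 rose. The receptor genes Csf2ra and Csf2rb fell in both genotypes, with -0.65 and -0.82 in IRF5-KO (adjusted p = 8.10e-05 and 0.000505) and -0.66 and -0.49 in WT (adjusted p = 0.000106 and 0.0223).

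On ST-HFD, 0 genes of any of these dendritic cell lists passed between genotypes, and 16 of the 16 tested mature dendritic cell genes had a positive log2 fold change, with a median of 0.31, beside 50.7% and 0.003 over all genes. Some lists of other cells leaned the same way, with 7 of 8 fibroblast genes (median 0.22) and 4 of 4 endothelial genes (median 0.82) positive. The macrophage list (7 of 15 positive, median -0.002) and the lipid-associated list (6 of 11, median 0.005) did not. On LT-HFD, 0 passed as well (0.0182%, or 2, of the 10987 genes tested). There, 11 of 14 tested mature genes (median -0.23) and 11 of 15 macrophage genes (median -0.23) were negative. The 11 lipid-associated genes were all positive (median 0.55). Over all genes 50.1% were positive, with a median of 0. The core list had 5 positive and 9 negative genes, the cDC1 list 3 and 8, the cDC2 list 4 and 5 and the plasmacytoid list 1 and 1. The lists were chosen with earlier results known, so nothing is read from these counts.

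Markers of other cells moved with the durations. The summed level of 8 fibroblast and preadipocyte genes was 582 to 1402 CPM in ST-HFD libraries and 2581 to 7537 CPM in LT-HFD libraries, and 8 of 8 rose in WT and 6 of 8 in IRF5-KO. The mast cell list, 0 to 3.70 CPM on ST-HFD, was 4.14 to 24.5 CPM on LT-HFD. The summed level of 15 macrophage genes was 11330 to 15240 CPM in ST-HFD and 8496 to 12170 CPM in LT-HFD libraries. In IRF5-KO, 9 of these 15 fell and 2, Adgre1 and Fcgr1, rose. In WT, 5 fell and 0 rose. Beside the genotype difference on LT-HFD, the fibroblast list overlapped between WT (2581 to 7537 CPM) and IRF5-KO (2616 to 6000). The macrophage list (9698 to 12170 CPM in WT and 8496 to 9486 in IRF5-KO) and the conventional dendritic cell core list (355 to 390.0 CPM in WT and 256 to 331 in IRF5-KO) did not. The cDC1 list (634 to 766 CPM in WT and 673 to 765 in IRF5-KO) and the cDC2 list (1908 to 2381 and 1625 to 1953) overlapped. So did the mature (733.5 to 1003 and 597 to 863) and plasmacytoid (115 to 150 and 98.7 to 134) lists. The lists were chosen with earlier results known, so nothing is read from those that did not overlap. The part of these lists in the members' levels was not tested.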

How the data were processed

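F4/80+ cells from epididymal fat were profiled by paired-end RNA-seq after ribosomal RNA depletion with a strand-specific low-input kit (SMARTer Pico, Takara). Per the labels and the study's methods, the authors aligned to mm10 with STAR 2.7.3a and deposited its raw counts per gene, not normalized. The submitters' processing notes also name fastp 0.19.11 and mm9, with no role given, and the strand setting of the counting is not given in the sources used here. Counts were tested with edgeR 4.0.16 in R 4.3.3 (filterByExpr, TMM, glmQLFit, glmQLFTest, Benjamini-Hochberg over all genes tested, called at an adjusted p under 0.05). Genotypes were fitted within each duration on 8 libraries, and durations and the interaction on all 16 in a means model. Gene names, coordinates and exon lengths came from GENCODE vM21 (GRCm38), to which 32620 of 37310 identifiers were matched, and promoters from RefSeq (GRCm38.p6).

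The members and lists were chosen with earlier results of these data known, and counts of calls among the members, planned for genotype on LT-HFD and for the interaction, are therefore not given. All 10 members are named. From the other lists, genes with an adjusted p under 0.05 between durations or between genotypes on ST-HFD (at most 6 per list and comparison by smallest p) and fixed defining markers could be named, and for likeness the 5 genes with the highest Pearson's r of log2 CPM (prior count 2, group means subtracted, mean count of at least 20). Replicate numbers were taken to pair libraries between genotypes on ST-HFD only, where same-numbered libraries had correlations of 0.368, 0.483, 0.179 and 0.298 over 9765 genes, although libraries with different numbers reached 0.466; nothing in the labels says what they share. The fits were tested on simulated data. Alternatives were DESeq2 1.42.0, RLE normalization, no filter, a replicate block, other libraries in the fit, the 3 most abundant features left out, and each library left out. No columns were left unmapped. Depth was 3279332 to 4958131 counts, and intervals and floors cover counting error only.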

Additional observations from a re-analysis of the deposited data

Results flagged for a closer look

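Ccr7 in WT LT-HFD replicate 2 stood apart from the other libraries of its group, at 8.96 CPM (26 counts) against 4.73 to 5.08 CPM, a gap of 0.917 of the group's range. It was the only flag among 40 groups of 4 libraries examined for the 10 members, and chance flags about 1 in 20 groups.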

How the results depend on the processing

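No direction of a called member changed. The 4 calls between durations in IRF5-KO held under DESeq2, RLE normalization, no filter, the replicate block, a fit of 8 libraries and without the 3 most abundant features. Leaving out 1 library gave 2 to 5 members called there, with 2 without IRF5-KO ST-HFD replicate 2 or IRF5-KO LT-HFD replicate 3, and 5 without IRF5-KO LT-HFD replicate 4. On ST-HFD the genes called between genotypes rose from 1 to 2 with DESeq2, with no filter, with the replicate block and with all 16 libraries in the fit, and 0 members were called in each. On LT-HFD they were 2 as reported, 8 with DESeq2, 6 with no filter and 0 with the replicate block, and leaving out 1 library gave 0 to 2 genes; the cause was not tested. The replicate numbers do not pair the LT-HFD libraries or the durations, and the block changed no other call.

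Uncalled differences near 0 changed sign when 1 library was left out. Between genotypes on ST-HFD, the log2 fold change without 1 library ran from -0.43 to 0.40 for Plbd1, -0.009 to 0.40 for Zbtb46, -0.018 to 0.48 for Cd209a and -0.44 to 0.12 for Itgax. Between durations in WT it ran from -0.70 to 0.049 for Flt3, -0.47 to 0.21 for Cd209a, -0.46 to 0.24 for Ccl22 and -0.39 to 0.13 for Itgax, and in IRF5-KO from -0.32 to 0.30 for Itgax. Of the values given without a test, the LT-HFD genotype difference ran from -0.65 to 0.24 for Ccr7 and from -0.26 to 0.28 for Itgax (0.059 for Itgax with the replicate block). Ccr7 was positive without WT replicate 2, IRF5-KO replicate 2 or IRF5-KO replicate 3, and Itgax without WT replicate 1 or 3 or IRF5-KO replicate 1, 2 or 4. The interaction ran from -0.21 to 0.40 for Itgax and from -0.89 to 0.28 for Flt3.

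Depth limits Flt3, Clec9a and Xcr1, with at most 21, 11 and 4 counts in a library. The sort and the driver limit what the levels can say of dendritic cells, and no value here separates cell number from RNA per cell.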
